A study of Cichorium intybus with 5 samples.

Results

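Arabinogalactan-proteins (AGPs) and extensins are the 2 best known families of hydroxyproline-rich glycoproteins of the plant cell wall. AGPs carry large arabinogalactan side chains on a small core protein and are found at the plasma membrane, in the wall and in the extracellular space, where they have been linked to cell growth, cell fate and somatic embryogenesis (SE). Extensins are rod-like proteins that can be cross-linked into the wall and give it strength, and they are known to respond to wounding and to changes in growth. β-D-glucosyl Yariv reagent (β-Glc Y), a synthetic dye with sugar arms, binds and aggregates AGPs and is used on living tissue to disturb their function. The data described here are those of 2 probes of a chicory cDNA microarray, E005B11, which the study annotates as an AGP, and E001A11, which it annotates as an extensin-related protein. They were chosen by these annotations and are 2 of the 2112 probes of the deposited table. Each probe is the amplified insert of a cDNA clone named by its plate and well. The clones came from subtractive libraries, made to enrich transcripts that differ between the 2 genotypes compared below. The study states that no other AGP-like gene was on the array. It chose this AGP because differential expression had been found earlier by quantitative RT-PCR. The annotation pairs E005B11 with the Arabidopsis locus AT2G33790 and E001A11 with AT2G05510. No sequence of either clone was used here, and the annotations were not checked. The name extensin-related is used below only as the study's label for E001A11, and what is said above of extensins may not hold for it.

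Leaf explants came from in vitro plantlets, 2 months old, of the chicory (Cichorium intybus) genotypes K59, which is embryogenic, and C15, which is not embryogenic and was obtained by selfing K59. Each genotype is 1 line, so that a difference between K59 and C15 is a difference between 2 plants of shared background and cannot be assigned to embryogenic capacity. The explants were cultured for 4 days in 20 mL of SE induction medium in the dark, at 35°C with shaking, with 250 µM β-Glc Y (d4, Y+) or without it (d4, Y-), or were taken without culture (d0), and 12 plants were used for each replicate. Every array was hybridized with a pair of RNA samples, and the table holds 5 comparisons: d4 vs. d0 within K59 and within C15 (induction), Y+ vs. Y- at d4 within K59 and within C15 (β-Glc Y), and K59 vs. C15 at d0. All cultured explants share the induction medium, the heat and the darkness, and there was no culture without induction, so the d4 vs. d0 ratios hold all of these together. No Yariv analogue was used as a negative control, so binding of AGPs and other effects of β-Glc Y cannot be told apart.

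Each value is a log2 ratio of the first named sample over the second. The biological replicates and dye-swapped hybridizations of a comparison were combined by the authors in 1 value per probe, so no replicate spread, standard error or p-value can be given and no difference was tested. In place of an error, each value is set beside all probes of its comparison, using the number of probes above or below it and the spread of all probes (median absolute deviation, scaled to the SD of a normal distribution). A probe is called up-regulated at a log2 ratio of 1 or more and down-regulated at -1 or less, the filter of the methods. In the deposited table both probes had a value in all 5 comparisons, and both passed this threshold in the 4 comparisons of cultured explants. For the extensin-related probe the β-Glc Y values are not settled, as described below. In bulk tissue, fewer cells that carry a transcript and less of the transcript per cell cannot be told apart.

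**Figure D1:**
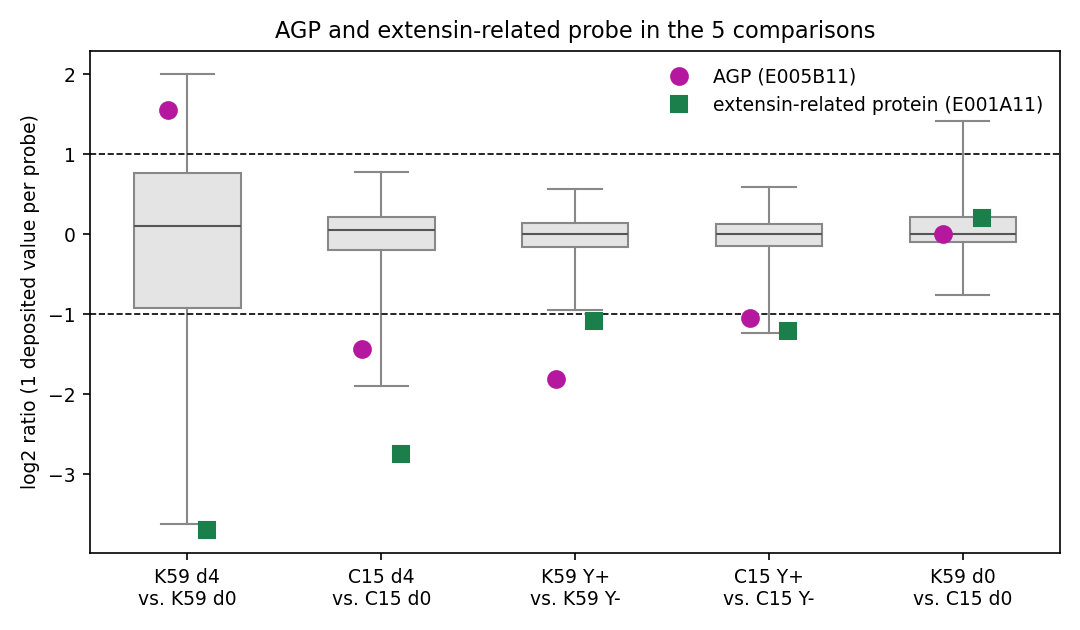
Log2 ratio (vertical axis) of the AGP probe (circles) and of the extensin-related probe (squares) in the 5 comparisons, over boxes that show the quartiles of all probes and whiskers that span their central 95%. Dashed lines mark the threshold of 1 and -1. The AGP is above the upper line in K59 d4 vs. K59 d0 (1.55) and below the lower line in the other 3 comparisons of cultured explants. By its deposited values the extensin-related probe is below the lower line in all 4.

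The AGP probe had opposite values in the 2 genotypes after SE induction. In K59 its log2 ratio of d4 over d0 was 1.55, a 2.93-fold higher signal at d4. In C15 it was -1.43, a 2.69-fold lower signal at d4. The AGP was thus up-regulated in K59, as were 17.3% of the 867 probes with a value there, and down-regulated in C15, as were 8.30% of 1169 probes. By rank the 2 values were similarly placed, with 6.69% of the probes higher than the AGP in K59 and 4.70% lower in C15. In spreads the 2 values differed more. K59 values were scattered widely, with a spread of 1.16, whereas the C15 spread was 0.30. Counted in spreads from the median, the AGP stood at 1.25 in K59 and at -5.02 in C15. In K59, 58 of the 867 probes had a higher value than the AGP, the next being an isoflavone reductase (clone E011H3, 1.56). In C15, 55 of the 1169 probes had a lower one, the next being a polyubiquitin (clone E017D10, -1.44).

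The difference between the genotypes after induction, K59 minus C15, was 2.98 for the AGP, which amounts to a 7.89-fold difference of the ratios. The study placed this clone on the array for differential expression between K59 and C15 found earlier. The rank of the difference is therefore no independent evidence. Among the 811 probes with both induction values the median difference was 0.14, and 1 probe had a larger positive difference than the AGP, the unannotated clone E011D8 (4.98). That clone was not down-regulated in C15. The AGP was the only probe of the table that was up-regulated in K59 and down-regulated in C15, a count of 1 that is not stable: it was 2 at a threshold of 0.95, 3 once every comparison was centred on its median, and 0 at a threshold of 1.5, which the C15 value does not reach.

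**Figure D2:**
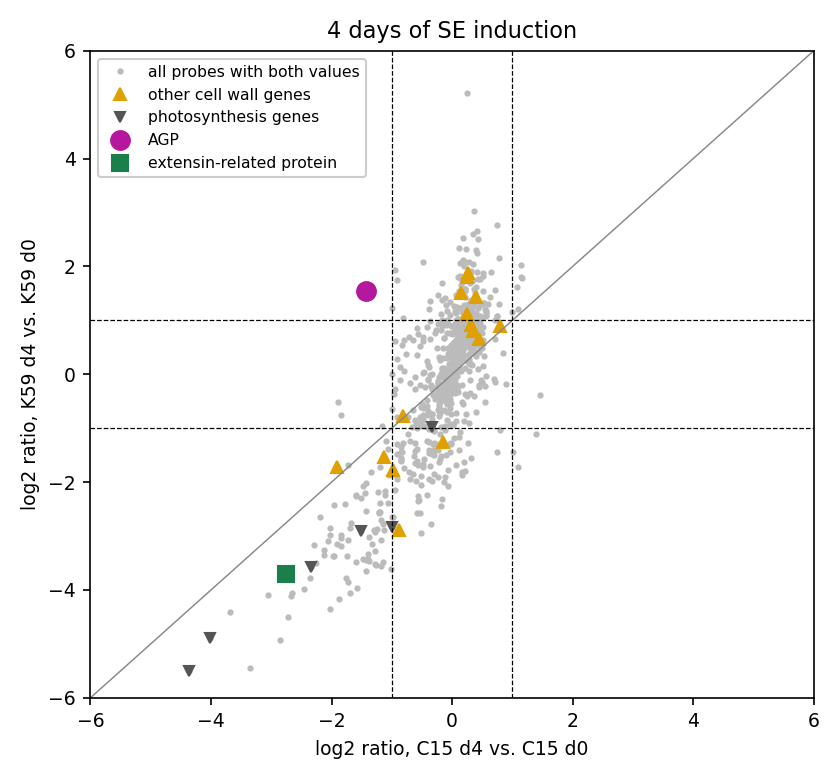
Log2 ratio of d4 over d0 in K59 (vertical axis) and in C15 (horizontal axis) for each of the 811 probes with both values (grey, other cell wall genes as orange triangles), with equal values on the diagonal and the threshold of 1 and -1 dashed. The AGP (circle, 1.55 and -1.43) lies alone in the upper left field, and the extensin-related probe (square, -3.70 and -2.75) lies in the lower left field with most of the photosynthesis genes (dark triangles).

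The extensin-related probe was strongly down-regulated in both genotypes. Its log2 ratio of d4 over d0 was -3.70 in K59, a 13-fold lower signal at d4, and -2.75 in C15, a 6.73-fold lower signal at d4. Down-regulation was common in K59, with 23.4% of all probes, but only 18 of 867 probes had a lower value than this one. In C15, where 8.30% of the probes were down-regulated, 9 of 1169 probes had a lower value, and the probe stood at -9.48 spreads from the median, compared with -3.29 spreads in K59. Its neighbours in the order of C15 values were a heat shock protein cognate (clone E016H11, -2.77) and the unannotated E009E7 (-2.72). The difference of K59 minus C15 was -0.95, and 142 of 811 probes had a more negative difference. With the spread of these differences at 0.83, the larger decrease in K59 was not unusual among the probes.

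Photosynthesis genes, listed here as markers of leaf mesophyll, had lower values at d4 than at d0, as the extensin-related probe did. All 6 photosynthesis probes had a value in each comparison. After induction 5 of 6 were down-regulated in K59 and 4 of 6 in C15, beside 23.4% and 8.30% of all probes. Their median was -3.25 for K59 and -1.92 for C15, where all probes had medians of 0.10 and 0.06. The RuBisCO small subunit, which is part of the carbon-fixing enzyme of chloroplasts, was lower than the extensin-related probe with both of its clones, N104E4 (-5.50 in K59 and -4.37 in C15) and E007F11 (-4.89 and -4.02). Among the 811 probes with both induction values, 88 were down-regulated in both genotypes, so such a decrease is not particular to these genes. All d4 explants were kept in the dark and d0 explants were not cultured. A change in mesophyll cells and an effect of the culture on these genes therefore cannot be told apart here. The part of either in the extensin-related value was not tested. In the presence of β-Glc Y none of the 6 photosynthesis genes passed the threshold in either genotype (range -0.26 to 0.27 in K59 and -0.20 to 0.48 in C15). Few of all probes did, with 0.583% up and 2.00% down in K59 and 1.03% and 3.81% in C15. None of 6 is thus near the share of all probes.

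In the deposited table both probes had a negative log2 ratio of Y+ over Y- in both genotypes. For the extensin-related probe the study's own supplementary list gives small positive values in both genotypes. The study also does not name it among the genes changed by β-Glc Y. Neither its direction after β-Glc Y nor its passing of the threshold is thus settled, and every statement on it holds for the deposited table only. For the AGP, Y+ over Y- gave a log2 ratio of -1.81 for K59 and -1.05 for C15, a 3.51-fold lower signal in Y+ in K59 and a 2.07-fold lower signal in Y+ in C15. The K59 value is the lowest of all 1201 probes of that comparison and is set off from the rest by a gap, as the next lowest was that of the proteasome ATPase RPT6 (clone E001E6, -1.29). In C15, 43 of 1260 probes had a lower value than the AGP. Changes of this size were rare after β-Glc Y, with 2.00% of the probes down-regulated in K59 and 3.81% in C15, and all probes together had spreads of only 0.22 (K59) and 0.21 (C15). Counted in these spreads from the median, the AGP stood at -8.14 in K59 and at -5.06 in C15.

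For the extensin-related probe, Y+ over Y- gave a log2 ratio of -1.08 for K59 and -1.21 for C15. These values are a 2.11-fold lower signal in Y+ in K59 and a 2.31-fold lower signal in Y+ in C15, and they lie close to the threshold. In K59, 15 probes had a lower value, and 4 shared the next lower one of -1.09, among them SDI-9 (clone E009A6), a lipid transfer protein, and a serine-type endopeptidase inhibitor (clone E017B9). In C15, 33 probes had a lower value. The extensin-related probe thus differed little between the genotypes in its response to β-Glc Y, with a difference of K59 minus C15 of 0.13, within the spread of 0.19 over 1044 probes. The AGP had a difference of -0.76, which was exceeded in the same direction by 11 of these probes. None of these differences was tested.

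**Figure D3:**
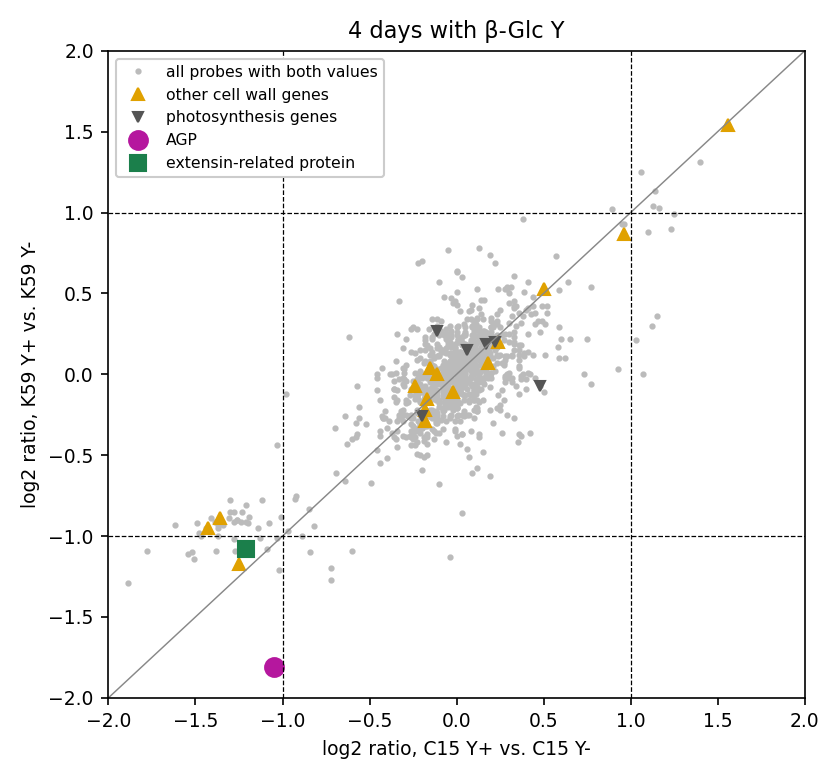
Log2 ratio of Y+ over Y- in K59 (vertical axis) and in C15 (horizontal axis) for each of the 1044 probes with both values (grey, other cell wall genes as orange triangles and photosynthesis genes as dark triangles), with equal values on the diagonal and the threshold of 1 and -1 dashed. The AGP (circle, -1.81 and -1.05) has the lowest K59 value and lies below the diagonal, while the extensin-related probe (square, -1.08 and -1.21) lies near the threshold in both genotypes.

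The induction and the β-Glc Y comparison of a genotype share the d4, Y- condition, so their log2 ratios can be added to place Y+ explants relative to d0. Such a sum is arithmetic and not a hybridization, an error in the shared condition would enter both terms with opposite signs, and whether the same RNA extracts were used is not given in the sources used here. For the AGP in K59 the sum was -0.26, a signal in Y+ explants at d4 within 1.20-fold of that at d0, and 266 of 769 probes had a lower sum. Which of the 2 steps was the larger in K59, the -1.81 with β-Glc Y or the 1.55 with induction, cannot be said, since the sum was 0.18 with the plate offset subtracted. In C15, where induction had already lowered the AGP, the sum was -2.48, a 5.58-fold lower signal in Y+ explants at d4 than at d0, and 23 of 1070 probes had a lower sum. For the extensin-related probe the deposited values add up to -4.78 in K59 (27.5-fold lower in Y+ at d4 than at d0) and -3.96 in C15 (15.6-fold lower), and the β-Glc Y term of these sums has the unsettled direction. Only 4 of 769 probes in K59 and 3 of 1070 in C15 had a lower sum.

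**Figure D4:**
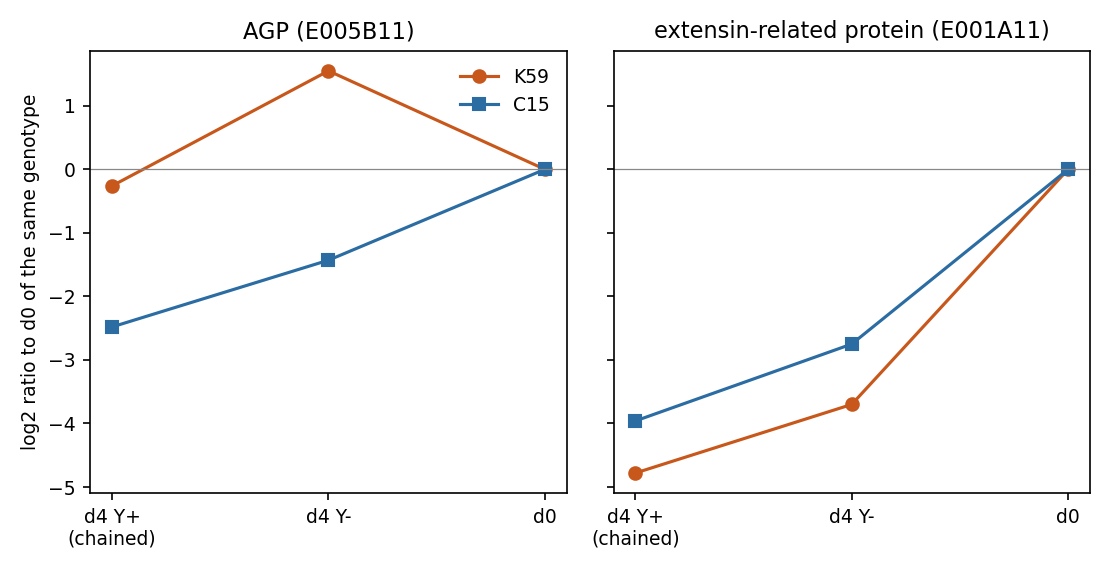
Log2 ratio relative to d0 of the same genotype (vertical axis) for the AGP (left) and the extensin-related probe (right) in d4, Y+ explants, d4, Y- explants and d0 explants, with K59 as circles and C15 as squares. The Y+ points are the sum of 2 deposited ratios. In K59 the AGP is at -0.26 in Y+ and at 1.55 in Y-, whereas the other 3 lines are lower in Y+ than in Y- and lower in Y- than at d0.

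Very few probes of the table responded as these did. Of the 736 probes with values in all 4 comparisons of cultured explants, 5 passed the threshold in every one of them: the AGP, the extensin-related probe and the unannotated clones E015F11, E017G1 and N104F5. The count was 3 with the plate offset subtracted, both probes among them, and 0 at a threshold of 1.5, and the extensin-related probe belongs to it only by its deposited β-Glc Y values. It and the 3 clones were down-regulated throughout, and the AGP was the only one of the 5 that was up-regulated anywhere. Among the 143 probes that were up-regulated in K59 after induction and have a K59 β-Glc Y value, 5 were down-regulated by β-Glc Y in K59, beside 2.00% of all probes. These were the AGP, RPT6, an amino acid permease (clone E002B7), an RNA helicase (clone N102G9) and the unannotated E002C11. In C15 after induction the other 4 had log2 ratios between 0.24 and 0.33, against -1.43 for the AGP. Both K59 comparisons share the d4, Y- condition, so an error in it could add to this count of 5.

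Likeness of pattern was measured as the Euclidean distance between probes over the 4 log2 ratios of cultured explants, for the 736 probes that have them. The probes nearest to the AGP were the amino acid permease (E002B7, distance 1.91), the RNA helicase (N102G9, 1.93) and E002C11 (1.96), of which the permease stood at 1.12 (K59) and 0.24 (C15) after induction and at -1.14 (K59) and -1.51 (C15) after β-Glc Y. These are not close matches, since the median distance of a probe to its nearest neighbour was 0.16 and no probe of the 736 was farther from its nearest neighbour than the AGP. The extensin-related probe was nearest to the unannotated clones E015F11 (1.0), N102G4 (1.09) and N104G6 (1.12), and 5 probes were farther from their nearest neighbour. E015F11 stood at -3.78 (K59) and -1.76 (C15) after induction and at -1.09 (K59) and -1.27 (C15) after β-Glc Y, so that it shares both responses, whereas N102G4 and N104G6 stayed within the threshold after β-Glc Y (-0.30 and -0.38 in K59). The order depends on the scale. When each comparison was divided by its spread, none of the 3 probes nearest to the AGP and 1 of the 3 nearest to the extensin-related probe (E015F11) was in the list again.

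At d0 the deposited log2 ratio of K59 over C15 was 0.00 for the AGP and 0.21 for the extensin-related probe. Both lie within the threshold, as do most probes of this comparison, where 6.71% of 492 probes were at 1 or more and 1.42% at -1 or less. The direction of this comparison rests on the sample labels alone, and with the sign turned the extensin-related value would be -0.21. The AGP shares its value of exactly 0.00 with 56 other probes, and 48 of the 57 are among the 135 clones that the study annotates, so this value cannot be read as a measured equality. In the 3 unannotated clones that were down-regulated throughout like the extensin-related probe, the d0 value lay farther from 0, at 1.0 in E015F11, 1.68 in E017G1 and 1.24 in N104F5, or at -1.0, -1.68 and -1.24 with the sign turned. Adding the d0 ratio to the difference between the induction ratios places K59 d4 against C15 d4, which were not hybridized together. This sum was 2.98 for the AGP, the highest of the 486 probes with all 3 values, also with the sign of the d0 ratio turned. The AGP is among these probes only by its d0 value of 0.00. Clone E011D8, which had a larger difference after induction (4.98), has no d0 value and is left out of this ranking. For the extensin-related probe the sum was -0.74, or -1.16 with the sign of the d0 ratio turned.

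The other cell wall genes that the study annotates give the setting of these values. They number 16, namely 6 further structural proteins, 6 proteins that modify the wall, and PGIP, EDGP, PAL and remorin. The study listed them for their response in these same samples, so their counts are no independent evidence of a direction. After induction in K59, 5 of 15 with a value were up-regulated and 5 down-regulated, beside 17.3% and 23.4% of all probes, with a median log2 ratio of 0.81 against 0.10 over all probes. In C15 none of 15 was up-regulated, as were 1.54% of all probes, and 2 were down-regulated, as were 8.30% of all probes, with a median of 0.24 against 0.06. No cell wall gene other than the AGP was up-regulated in K59 and down-regulated in C15.

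Among the structural proteins, the mucin-related protein (clone E011H10) stood at a log2 ratio of 1.80 for K59 and 0.24 for C15, the mucin-like protein (E012B9) 1.44 and 0.40, and a glycine-rich protein (E017F4) 1.88 and 0.27. These 3 were thus higher than or close to the AGP in K59, and none of them was lower in C15 at d4 than at d0. The other glycine-rich protein (E015F12) was within the threshold on the negative side, at -0.77 in K59 and -0.82 in C15. In the direction of the extensin-related probe, the H-rich protein (E011A6) had -1.53 in K59 and -1.13 in C15, and HyPRP (E007E2), a hybrid proline-rich protein, had -1.26 and -0.15. Among the proteins that modify the wall, endoxyloglucan transferase (E004D1), which cuts and rejoins xyloglucan, had -2.88 in K59 and -0.88 in C15, and expansin 2 (E011A7), which loosens the wall, had -1.72 and -1.91. The other expansin (E017D6) was within the threshold on the positive side, at 0.81 in K59 and 0.34 in C15. Polygalacturonase (E012H2), which hydrolyses pectin, had 1.5 in K59 and 0.15 in C15. None of these 16 genes had a value as low as that of the extensin-related probe in either genotype, the lowest being -2.88 in K59 and -1.91 in C15.

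Most of the cell wall genes stayed within the threshold after β-Glc Y, but those that passed it were a larger share than among all probes. The study listed these genes for their response in these same samples. In K59, 1 of 15 was up-regulated and 1 down-regulated, beside 0.583% and 2.00% of all probes, and in C15 1 of 16 was up-regulated and 3 were down-regulated, beside 1.03% and 3.81%. HyPRP was the gene that was down-regulated in both genotypes, like the AGP and the extensin-related probe, with -1.17 in K59 and -1.25 in C15. The mucin-like protein and remorin, a plasma membrane protein, passed the threshold in C15 only, the mucin-like protein at -0.89 (K59) and -1.36 (C15) and remorin at -0.95 (K59) and -1.43 (C15). EDGP (E010H12), an extracellular glycoprotein, was up-regulated in both, with 1.54 in K59 and 1.56 in C15, and PGIP (E012E7), an inhibitor of polygalacturonases, stood at 0.87 and 0.96. The glycine-rich protein E015F12 stood at 0.53 in K59 and 0.50 in C15. The 6 proteins that modify the wall lay between -0.11 and 0.20 in K59 and between -0.24 and 0.24 in C15. No one of the 16 genes had a K59 value as low as the -1.81 of the AGP.

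**Figure D5:**
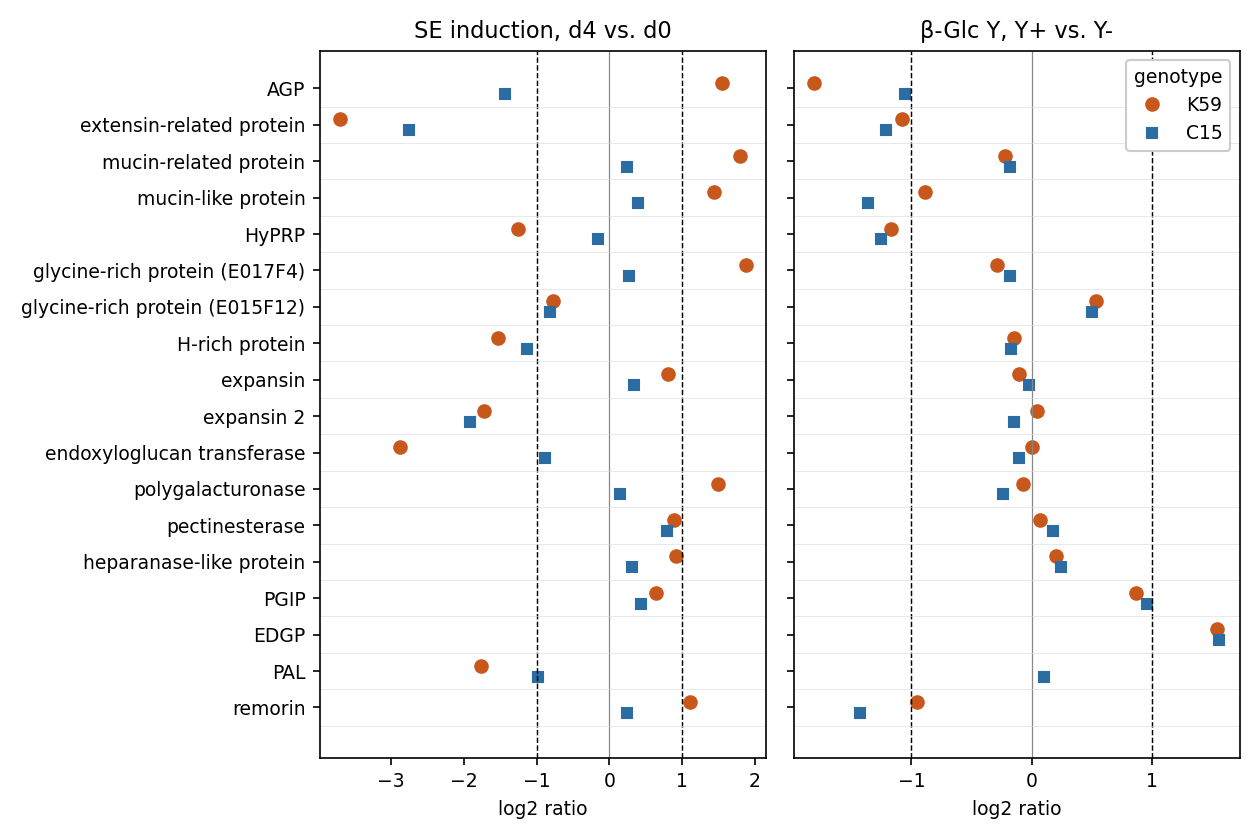
Log2 ratio (horizontal axis) of the AGP, the extensin-related probe and the 16 other cell wall genes after SE induction (left) and after β-Glc Y (right), with K59 as circles and C15 as squares and the threshold of 1 and -1 dashed. The AGP has its genotypes on opposite sides in the left panel and the lowest K59 value in the right panel, the extensin-related probe has the lowest values in the left panel, and EDGP is the highest in the right panel.

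The 2 clones come from different plates of the clone collection, E005 and E001. On plate E005 the median after induction was -0.34 (K59) and -0.10 (C15), after β-Glc Y it was 0.00 (K59) and 0.01 (C15), and the AGP was the lowest of 25 probes of its plate in K59 Y+ vs. K59 Y-. On plate E001 the medians were -0.39, -0.08, -0.04 and 0.10 in the same order, and the extensin-related probe was the lowest of 51 probes of its plate in C15 after induction. With the plate offset subtracted, both probes still passed the threshold in all 4 comparisons of cultured explants.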

How the data were processed

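The deposited table gives log2 ratios that the authors computed from GenePix scans of 2-colour cDNA arrays. They filtered out poor, overexposed and faint spots, worked from median spot signals less background, and corrected every slide in R, first by lowess over all spots and then by the median of each print-tip block. Probes whose sign changed with the dye swap were discarded. How the biological replicates were combined into 1 value is not given in the sources used here. Intensities were not analysed here, so depth and precision are unknown. The FDR and SAM filters of the methods need single hybridizations and were not repeated. Centring is as deposited, with medians of 0.10 and 0.06 after induction and 0.00 elsewhere. Direction follows the sample labels.

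Gene names come from the study's list of 135 clones, all of which are in the table. Its values were not used, except to state that its β-Glc Y values for the extensin-related probe differ from those deposited. The probes and gene lists were chosen with earlier results of these data known. Genes named are both probes, the listed genes, the 3 nearest probes and probes next in rank, and a few more were picked with their values in view, namely the clones behind counts of 5 or fewer and clone E011D8. No test was made. Alternatives were a threshold of 0.95 or 1.5, median or plate offset subtraction, probes with all 4 culture values, another distance scale, and turning or leaving out d0. All 12 steps tried on simulated data of 2112 probes returned the planted answers. Python 3.11.15, numpy 2.4.6, pandas 2.3.3 and matplotlib 3.10.9 were used.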

Additional observations from a re-analysis of the deposited data

Results flagged for a closer look

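For the AGP probe the 2 genotypes lay on opposite sides of 0 after SE induction, at a log2 ratio of 1.55 for K59 and -1.43 for C15, a difference of 2.98. This difference was not tested, because no replicate values were used. The clone was on the array for differential expression between K59 and C15 found earlier. The study also measured the AGP by quantitative RT-PCR beside its arrays and reported no significant difference between RT-PCR and array results. Those measurements were not used here.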

How the results depend on the processing

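Of 46 recomputed values of the 2 probes, 31 kept their side of the threshold and moved by 0.1 or less, and no value past the threshold changed sign. Subtracting the median of each comparison moved none of them further. Subtracting the plate offset gave the AGP 1.99 in K59 and -1.27 in C15 after induction (difference 3.27), -0.20 at d0, and sums of Y+ over d0 of 0.18 in K59, where the sign turned below the threshold, and -2.33 in C15. It gave the extensin-related probe -3.21 and -2.61 after induction (difference -0.60), a β-Glc Y difference of 0.27, a sum of Y+ over d0 of -4.25 in K59 and -0.42 for K59 d4 over C15 d4, which was -1.16 with the d0 sign turned and -0.95 without the d0 term. Turned, its d0 value was -0.21. At a threshold of 1.5 each probe passed in 2 comparisons instead of 4.

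Alternatives for counts over several comparisons were chosen after seeing the data. At 1.5, 0 probes passed in all 4, 0 were down in all 4, 0 were down with β-Glc Y in both genotypes (18 at a threshold of 1), 1 was up with induction and down with β-Glc Y in K59, and 0 were up in K59 and down in C15 after induction. Of that last kind there were 2 at 0.95 and 3 after median subtraction. With the plate offset subtracted, 3 probes passed in all 4, 2 were down in all 4, 3 were up and then down in K59, and 11 were down with β-Glc Y in both. Of the 3 nearest probes, 0 for the AGP and 1 for the extensin-related probe were in the list on the other scale. Of 70 other counts, 52 stayed within 1.5 times. At 1.5, 66 of all probes were up in K59 after induction (150 at 1), 3 were up (18) and 52 down (97) in C15, 1 was up (7) and 1 down (24) with β-Glc Y in K59, 1 up (13) and 6 down (48) in C15, and 11 were up (33) and 3 down (7) at d0. Among probes with all 4 values, 10 were up in C15 after induction, and 4 in K59 and 7 in C15 were up with β-Glc Y. Of the other cell wall genes, 3 were up in K59 (5 at 1) and 1 down in C15 (2) after induction at 1.5, and 0 were down with β-Glc Y in K59 (1) or C15 (3), while at 0.95 there were 2 down in K59 and 2 up (1) in C15. The causes were not tested. No paired analysis was possible because the table holds no replicate values.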
